A study of Mus musculus with 24 samples.

Results

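Gas5, Snhg6 and 6 further host genes of small nucleolar RNAs (snoRNAs) were followed here: Snhg1, Snhg3, Snhg7, Snhg8, Snhg11 and Snhg12. They were taken as all probe sets of the array whose single gene symbol in the platform annotation was one of these names, which gave 16 probe sets of 8 genes, out of 45037 probe sets and 18193 genes with such a symbol. All 8 genes were present in the annotation. Gas5 and Snhg6 were chosen by their measured values, because both were lower in Q111 than in wild-type mice in both tissues, so their genotype differences are a description with no test. The other 6 were chosen as genes of the same class. Gas5 was covered by 4 probe sets, Snhg1 by 5, Snhg11 by 2 and the remaining genes by 1 each. A further 2 probe sets, listed with a host gene and a snoRNA gene together, were left out.

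Host genes of this kind are transcribed and spliced like messenger RNA genes, but the snoRNAs in their introns are the products with the best known function. Box C/D snoRNAs guide ribose methylation of ribosomal RNA and box H/ACA snoRNAs guide its pseudouridylation, while the spliced host exons carry little or no coding sequence and, for Gas5, are removed by nonsense-mediated decay when the RNA is translated. Many host genes begin with a run of pyrimidines, the terminal oligopyrimidine (TOP) motif that ties translation of an RNA to mTOR signalling. Gas5 was named for its accumulation in growth-arrested mouse cells, and in human cells its spliced RNA can bind the glucocorticoid receptor. The arrays report the spliced, polyadenylated host transcripts and not the snoRNAs.

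The study profiled RNA of whole striatum and cerebellum on 24 Affymetrix arrays, 6 per group. Q111 mice were HdhQ111/HdhQ111, homozygous for a knock-in of an expanded CAG repeat into the huntingtin gene, and wild-type mice (WT) were Hdh+/Hdh+, labelled Q7/Q7. The 4 groups were Q111 striatum, wild-type striatum, Q111 cerebellum and wild-type cerebellum, all given the same age range of 3 to 10 weeks. The labels call the arrays of a group biological replicates, and give neither sex nor which arrays of the 2 tissues came from one mouse. The knock-in allele is carried in every cell of the animal, and each sample mixes all cells of the tissue, so fewer cells of a type and less RNA per cell cannot be told apart. Values are GCRMA expression values read as log2, array medians lay between 3.38 and 3.51, and arrays of one group correlated at 0.983 to 0.993 over probe sets. Markers of striatal projection neurons averaged 11.71 to 12.69 per array in striatum, against 5.26 to 5.64 in cerebellum, and those of cerebellar neurons 13.39 to 13.78 in cerebellum, against 4.99 to 5.56 in striatum.

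RefSeq annotation of GRCm38.p6 places Gas5 and Snhg6 on chromosome 1, Snhg7 and Snhg11 on 2, Snhg8 on 3, Snhg3 and Snhg12 on 4, and Snhg1 on 19, all as long non-coding RNA genes. Within their spans lie 8 snoRNA genes for Gas5 (among them Snord47), 8 for Snhg1 (Snord22), 4 for Snhg12 (Snora16a, Snora44, Snora61 and Snord99), 2 for Snhg3 (Snora73a and Snora73b), 2 for Snhg7 (Snora17 and Snora43), 2 for Snhg11, 1 for Snhg6 (Snord87) and 1 for Snhg8 (Snora24). RefSeq promoter sequences, 250 bases before and 50 after an annotated start, were matched for 7 of the 8 genes, not for Snhg6. Gas5 has 2 entries. The one with a pyrimidine run at the start is shown whole, since the data turn on Gas5. Capitals mark TGACGTCA, the palindrome bound by CREB-family factors, then TTATATA, in which TATATA overlaps the reverse complement of TATAA, and last the pyrimidine run that crosses the start.
Gas5 (chr1:161034916-161035215, plus strand): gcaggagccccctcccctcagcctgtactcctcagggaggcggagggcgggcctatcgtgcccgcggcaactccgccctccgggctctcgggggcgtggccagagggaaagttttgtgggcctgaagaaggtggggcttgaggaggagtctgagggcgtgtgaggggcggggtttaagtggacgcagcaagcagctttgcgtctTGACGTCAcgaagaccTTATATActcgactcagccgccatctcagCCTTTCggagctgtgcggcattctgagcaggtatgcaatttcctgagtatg

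The same start region of the other host genes, 40 bases before and 50 after the annotated start, is shown to compare the pyrimidine runs, which the choice of genes did not use. Capitals mark the longest unbroken run of C and T within 10 bases of the start.
Snhg8 (chr3:123508287-123508376, minus strand): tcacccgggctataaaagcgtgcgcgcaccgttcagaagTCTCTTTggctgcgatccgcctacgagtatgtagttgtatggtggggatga
Snhg12 (chr4:132308638-132308727, plus strand): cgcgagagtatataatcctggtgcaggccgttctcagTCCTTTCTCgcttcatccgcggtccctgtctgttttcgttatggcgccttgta
Snhg7 (chr2:26640195-26640284, minus strand): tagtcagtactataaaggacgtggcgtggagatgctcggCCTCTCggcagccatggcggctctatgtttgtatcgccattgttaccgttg
Snhg1 (chr19:8723447-8723536, plus strand): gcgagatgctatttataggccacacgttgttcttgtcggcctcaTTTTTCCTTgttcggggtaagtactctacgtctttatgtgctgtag
Snhg3 (chr4:132353637-132353726, minus strand): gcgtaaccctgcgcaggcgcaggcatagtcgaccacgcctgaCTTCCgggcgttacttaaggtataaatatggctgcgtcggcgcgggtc
Snhg11 (chr2:158375673-158375762, plus strand): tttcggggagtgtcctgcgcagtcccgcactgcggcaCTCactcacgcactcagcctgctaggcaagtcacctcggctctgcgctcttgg
The run is 6 bases long in the Gas5 entry shown and in Snhg7, 7 in Snhg8, 9 in Snhg12 and Snhg1, 5 in Snhg3, and 3 in Snhg11 and in the Gas5 entry not shown. Over the 32851 RefSeq promoters of full length the median run is 4. A run of at least 6 is found in 30.0% of them, of at least 7 in 20.2%, of at least 9 in 9.75%, of at least 5 in 45.9% and of at least 3 in 83.9%. In Snhg1 and Snhg3 the run begins after the annotated start, at positions 5 and 3. Searched on both strands, TATAA occurs in 6 of the 8 entries, those of Gas5, Snhg1, Snhg3, Snhg7, Snhg8 and Snhg12, against 24.9% of all promoters. CCAAT occurs in 2 of the 8, of Snhg3 and Snhg8, against 37.4%, and GGGCGG in 4, of Gas5 (both entries), Snhg1 and Snhg8, against 35.7%. TGACGTCA occurs in the Gas5 entry shown alone among the 8, against 1.79% of all promoters, and TATATA in Gas5 and Snhg12, against 5.67%. These are matches of letters in a window and describe no binding.

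Gas5 RNA was lower in Q111 mice in both tissues on each of its 4 probe sets. On the brightest, 1419291_x_at, the Q111 striatum arrays ran from a lowest of 10.57 over a median of 10.86 to a highest of 11.23, and the wild-type striatum arrays had 11.01, 11.42 and 11.80. All 6 Q111 arrays lay under the wild-type mean, although the groups overlapped, since the highest Q111 array passed the lowest wild-type arrays. In cerebellum the Q111 arrays had a lowest value of 9.97, a median of 10.29 and a highest of 10.41, against 10.56, 10.81 and 11.16 in wild type. There the groups did not overlap. The mean was 10.86 ± 0.24 in Q111 and 11.43 ± 0.30 in wild-type striatum, and 10.25 ± 0.18 in Q111 and 10.85 ± 0.21 in wild-type cerebellum (SD, n = 6 each). That is a difference of -0.56 (95% interval -0.84 to -0.29) in striatum and -0.60 (-0.88 to -0.33) in cerebellum, or 67.7% and 65.9% of the wild-type level. The striatal difference minus the cerebellar one was 0.04 (-0.35 to 0.43).

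**Figure D1:**
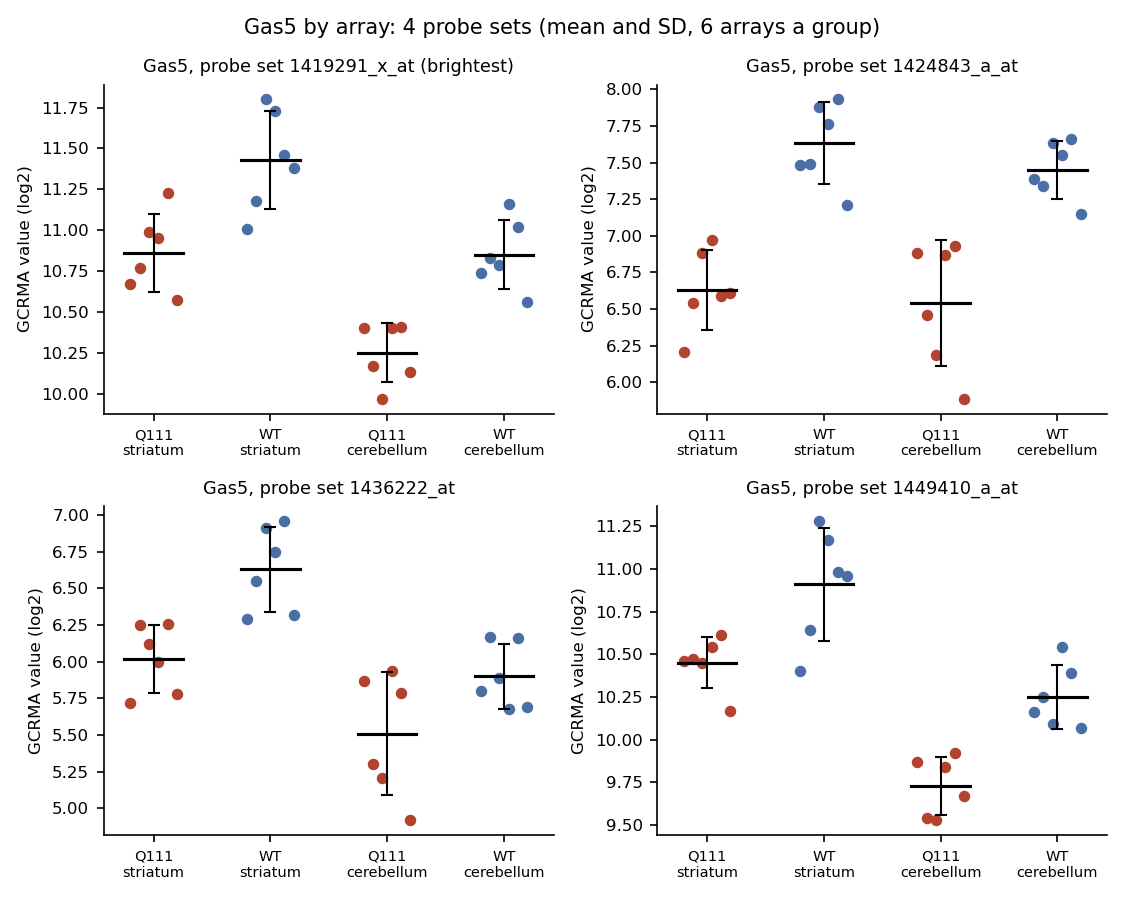
GCRMA values (log2, vertical axis) of the 4 Gas5 probe sets in each array of the 4 groups. Points are arrays, and the black line and bar are the group's mean and SD (n = 6). On probe set 1424843_a_at the Q111 arrays lie below every wild-type array in both tissues, with 6.21 to 6.97 against 7.21 to 7.93 in striatum.

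The other Gas5 probe sets differ in size but not in direction. The widest gap was on 1424843_a_at, with 6.21 to 6.97 in Q111 and 7.21 to 7.93 in wild-type striatum, and with 5.89 to 6.93 in Q111 and 7.15 to 7.66 in wild-type cerebellum. Its groups overlapped in neither tissue, and its differences of -0.99 and -0.91 put Q111 at 50.3% and 53.0% of wild type. Probe set 1436222_at gave -0.61 in striatum, where its groups did not overlap, and -0.39 in cerebellum, where they did. Probe set 1449410_a_at gave -0.46 in striatum, with overlap, and -0.52 in cerebellum, without. After each group's mean was taken off, the 4 probe sets correlated over the 24 arrays at 0.47 to 0.92, highest for the 2 bright ones, 1419291_x_at and 1449410_a_at. The points share arrays and hybridisations. The name ending in x_at marks a probe set with probes that can match other transcripts.

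Snhg6, whose intron holds Snord87, had a smaller and tighter difference on its single probe set. In striatum the Q111 arrays had a lowest value of 9.44, a median of 9.51 and a highest of 9.61, against 9.75, 9.80 and 9.91 in wild type. In cerebellum they had 9.51, 9.61 and 9.81, against 9.82, 9.90 and 9.97 in wild type. The genotypes overlapped in neither tissue, although the highest Q111 array and the lowest wild-type array nearly touched in cerebellum. The means were 9.51 ± 0.06 in Q111 and 9.81 ± 0.06 in wild-type striatum, and 9.64 ± 0.13 in Q111 and 9.89 ± 0.06 in wild-type cerebellum (SD, n = 6 each). The difference was -0.30 (-0.42 to -0.19) in striatum and -0.25 (-0.37 to -0.13) in cerebellum, which is 81.1% and 84.0% of wild type. Its striatal difference minus its cerebellar one was -0.05 (-0.22 to 0.11).

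Of all 15 member probe sets past the filter on low values (a mean of at least 4 in either tissue), the Q111 arrays lay wholly below the wild-type arrays on 3 in striatum and 4 in cerebellum, all of Gas5 or Snhg6. The same held for 1.67% of the 20738 probe sets tested in striatum and 0.945% in cerebellum. Since the choice of both genes used this contrast, nothing is read from these counts. The least difference among the chosen genes was that of Snhg6 in cerebellum (-0.25). The choice helped to set its size, so it is no threshold for the other genes. Among those, Snhg12 gave -0.25 in striatum and -0.39 in cerebellum. Snhg11 gave -0.38 in striatum and -0.02 in cerebellum, and Snhg8 gave -0.24 and -0.20. The striatal value of Snhg12 averages 0.51 in arrays 1 to 3 of each group and -1.01 in arrays 4 to 6. Snhg1 and Snhg3 are given below.

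None of the host genes that were not chosen by value passed the test between genotypes. Snhg7, at 2.91 to 3.66 on every array, did not pass the filter and was not tested. Of the remaining 5, 0 reached an adjusted p of 0.05 in limma in striatum, where 2.87% of all probe sets did (173 higher and 422 lower in Q111, or 310 and 332 after quantile normalisation). In cerebellum 0 of 5 did, against 0.458% of all probe sets, 20 of them higher and 75 lower (45 and 39 after quantile normalisation). Without adjustment, 2 of the 5 had a p under 0.05 in striatum, against 19.0% of all probe sets, and 1 did in cerebellum, against 13.8%. Their median difference was -0.24 in striatum and -0.17 in cerebellum, against -0.02 and -0.05 over all probe sets, of which 55.4% and 65.5% lay below 0. For the interaction, 0 of the 5 passed, against 0.0868% of all probe sets, and 1 had an unadjusted p under 0.05, against 10.1%.

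Snhg11 came nearest in striatum. Its brightest probe set, 1434292_at, had a lowest value of 10.50, a median of 10.79 and a highest of 11.23 in Q111 striatum, against 10.97, 11.19 and 11.49 in wild type. The groups overlapped, with 5 of 6 Q111 arrays under the wild-type mean. The difference of -0.38 (-0.62 to -0.13) had an adjusted p of 0.0824. Without Q111 striatum array 6, the highest of its group, it was -0.45 with an adjusted p of 0.0478. That was the only 1 of the 24 fits with an array left out that passed, and leaving out the highest Q111 array widens the difference by itself. The second probe set, 1437311_at, gave -0.10 (adjusted p = 0.92), and the mean of both gave -0.24 (adjusted p = 0.562). In cerebellum Q111 arrays ran between 10.58 and 11.19 and wild-type arrays between 10.82 and 11.16, a difference of -0.02 (-0.27 to 0.22) that became 0.03 after quantile normalisation. The interaction of -0.35 (-0.70 to -0.01) had an adjusted p of 0.486, so a difference between the tissues did not pass.

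Snhg8, the host of Snora24, had 9.45, 9.66 and 9.74 as lowest, median and highest value in Q111 striatum, against 9.47, 9.94 and 10.09 in wild type. In cerebellum it had 9.16, 9.43 and 9.64 in Q111, against 9.44, 9.63 and 9.71 in wild type. The groups overlapped in both tissues, and the differences were -0.24 (-0.44 to -0.05, adjusted p = 0.153) and -0.20 (-0.39 to 0.00, adjusted p = 0.35). Without wild-type striatum array 1, the lowest of its group, the striatal difference was -0.33 with an adjusted p of 0.0298. None of the other fits with an array left out passed, and leaving out the lowest wild-type array widens the difference by itself. Snhg3, the host of Snora73a and Snora73b, differed by -0.14 (-0.37 to 0.09, adjusted p = 0.545) in striatum and 0.02 (-0.21 to 0.25, adjusted p = 0.964) in cerebellum.

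Snhg1, the host of Snord22, differed by -0.07 (-0.29 to 0.14, adjusted p = 0.758) in striatum and -0.17 (-0.39 to 0.04, adjusted p = 0.462) in cerebellum on its brightest probe set. Its 5 probe sets gave differences between -0.17 and -0.05 in striatum and between -0.17 and 0.10 in cerebellum. Snhg12 differed by -0.25 (-0.71 to 0.20, adjusted p = 0.58) in striatum and -0.39 (-0.85 to 0.06, adjusted p = 0.431) in cerebellum. The intervals of Snhg3, Snhg8, Snhg11 and Snhg12 in striatum, and of Snhg1, Snhg8, Snhg11 and Snhg12 in cerebellum, include the difference that Snhg6 had in the same tissue.

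**Figure D2:**
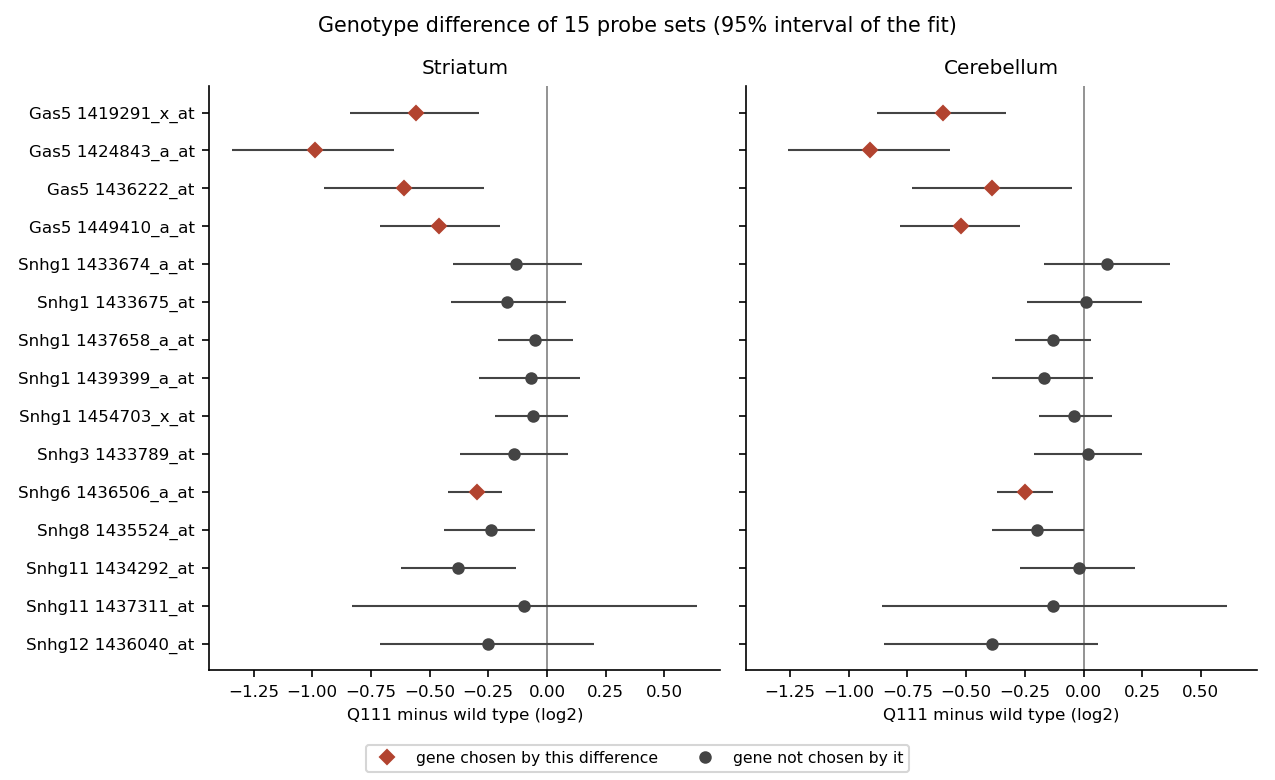
Q111 minus wild type (log2, horizontal axis) for the 15 probe sets past the filter, in striatum (left) and cerebellum (right). Symbols are the fitted differences and lines their 95% intervals. The Gas5 and Snhg6 probe sets, chosen by this difference, all lie below 0, and most intervals of the other genes include 0.

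**Figure D3:**
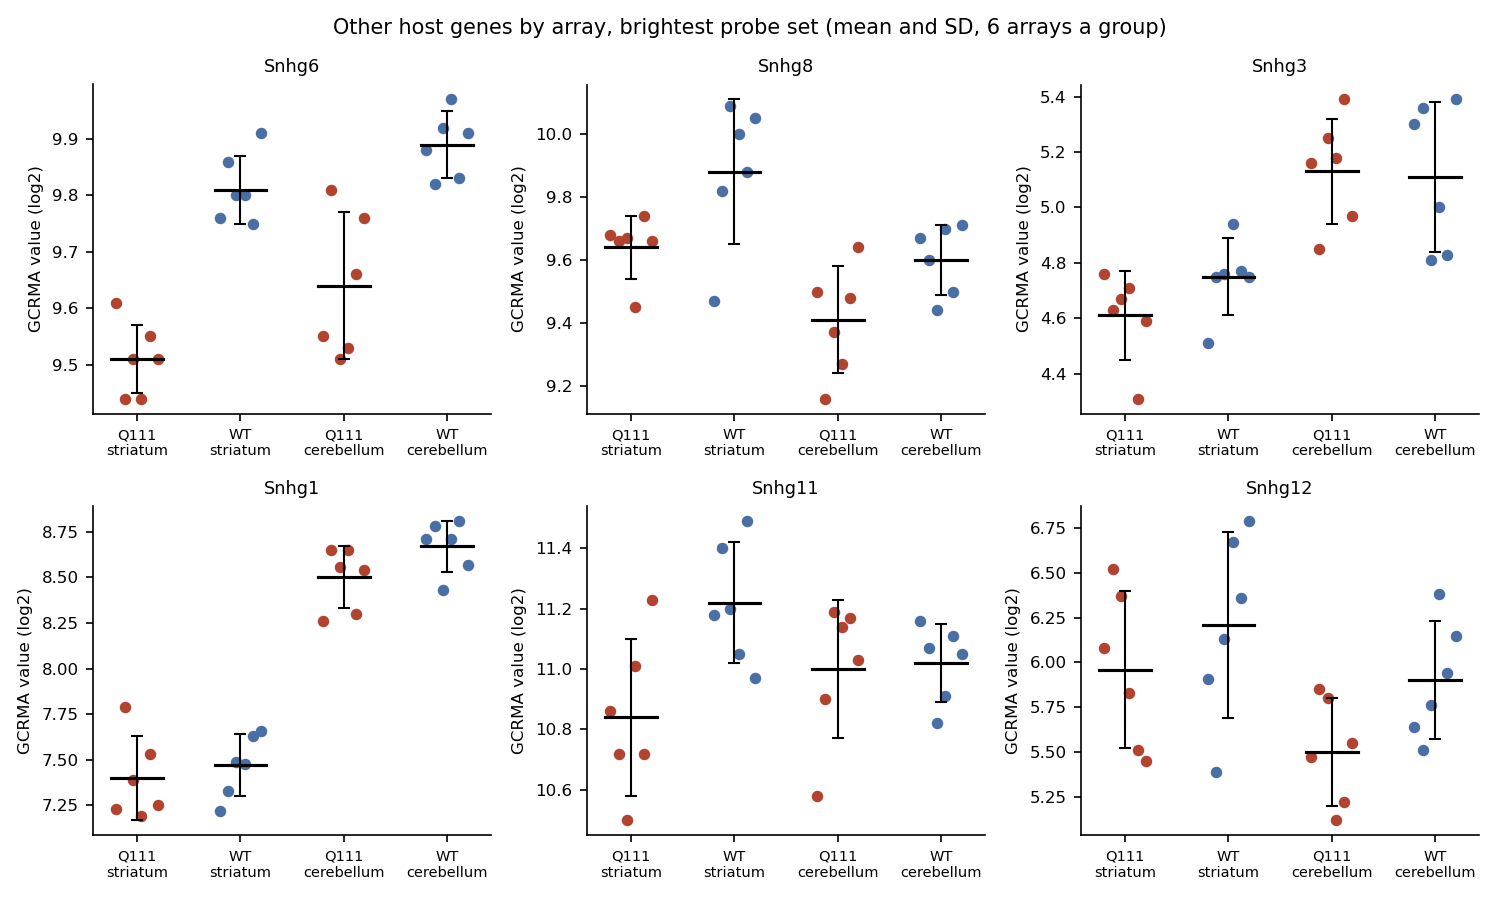
GCRMA values (log2, vertical axis) of Snhg6, Snhg8, Snhg3, Snhg1, Snhg11 and Snhg12 in each array of the 4 groups. Points are arrays, and the black line and bar are the group's mean and SD (n = 6). The vertical scales differ, and Snhg1 shows the widest gap between the tissues, with 7.19 to 7.79 in Q111 striatum against 8.26 to 8.65 in Q111 cerebellum.

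The genotype difference of Snhg12 depended on which arrays of a group were compared. Arrays carry replicate numbers 1 to 6, and within each tissue the means of numbers 1 to 3 and of 4 to 6 were nearly equal over probe sets, with a SD of their difference of 0.0392 in striatum and 0.0384 in cerebellum, a step that no label records. In striatum Snhg12 had 6.08, 6.52 and 6.37 in Q111 arrays 1 to 3, against 5.91, 5.39 and 6.13 in wild-type arrays 1 to 3. Arrays 4 to 6 showed the opposite order, with 5.83, 5.51 and 5.45 in Q111 and 6.67, 6.36 and 6.79 in wild type. Since the set means were nearly equal, a shift of one genotype between the sets comes with an opposite shift of the other. Which genotype moved cannot be told. The genotype difference was 0.51 in numbers 1 to 3 and -1.01 in numbers 4 to 6. The change of -1.52 (SE 0.26) between the sets had an adjusted p of 0.0036 in a limma fit added after the values were seen, in which 2.9% of all probe sets passed. In cerebellum the values were 0.07 and -0.86, and their difference of -0.93 (SE 0.26) had an adjusted p of 0.466, where 0.00482% of all probe sets passed.

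The second Snhg11 probe set, 1437311_at, also turned, the other way. It had 7.99, 7.87 and 8.46 in Q111 striatum arrays 1 to 3, against 9.39, 9.35 and 9.08 in wild type. In arrays 4 to 6 it had 8.86, 9.61 and 9.41 in Q111, against 8.43, 8.28 and 8.26 in wild type. The differences of -1.17 and 0.97 lay 2.14 (SE 0.60) apart, with an adjusted p of 0.0587, while the brightest Snhg11 probe set gave -0.57 and -0.18. Of the Snhg1 probe sets, 1433674_a_at gave 0.27 in numbers 1 to 3 and -0.53 in numbers 4 to 6 in striatum, a change of -0.80 (SE 0.22, adjusted p = 0.0533). The 2 Snhg11 probe sets correlated at 0.16 over the 24 arrays after group means were removed. Gas5 and Snhg6 were lower in Q111 in both sets on every probe set, but were chosen for that on these same arrays. Nothing is read from it. The brightest Gas5 probe set gave -0.52 and -0.61 in striatum and -0.61 and -0.60 in cerebellum. The others changed most on 1449410_a_at in striatum (-0.32 and -0.60) and on 1436222_at in cerebellum (-0.49 and -0.29). Snhg6 gave -0.29 and -0.32 in striatum and -0.25 in both sets in cerebellum.

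**Figure D4:**
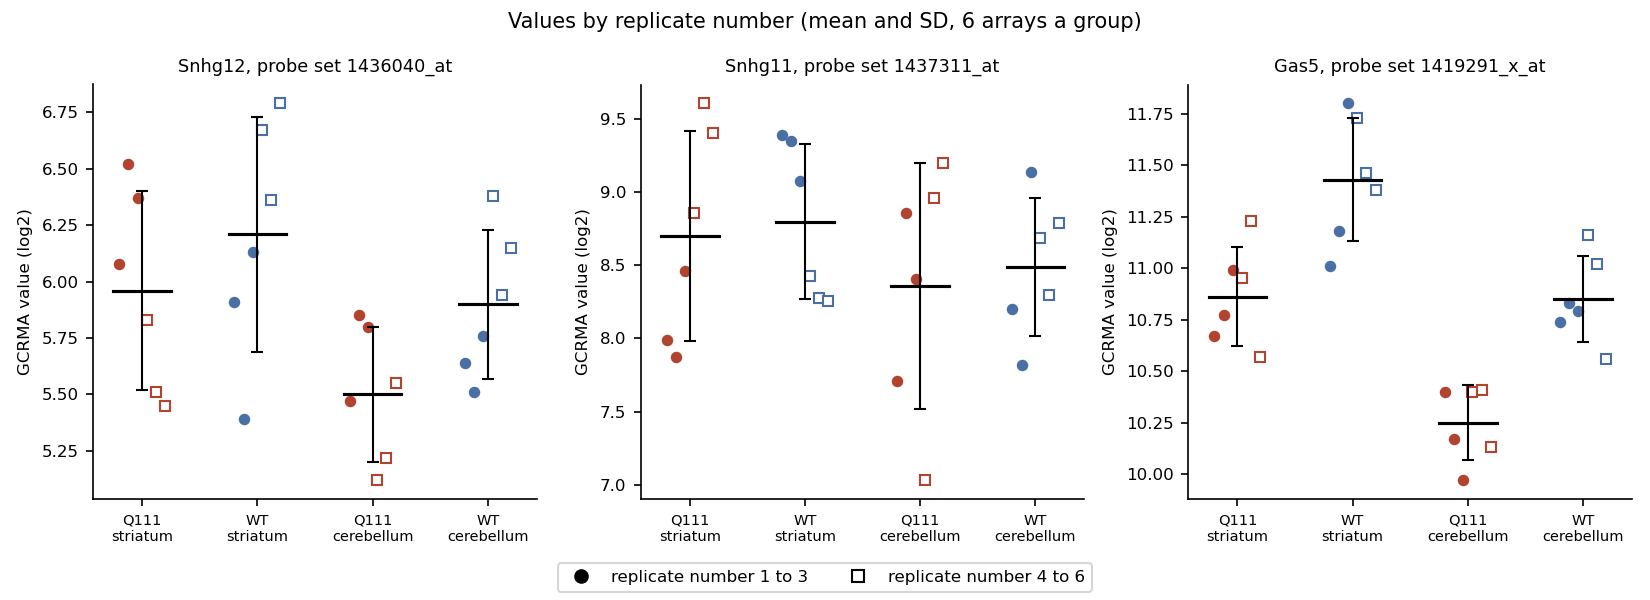
GCRMA values (log2, vertical axis) of Snhg12, the second Snhg11 probe set and the brightest Gas5 probe set in each array. Filled circles are replicate numbers 1 to 3, open squares numbers 4 to 6, and the black line and bar are the mean and SD of all 6 arrays. In striatum the squares of Snhg12 lie below the circles in Q111 and above them in wild type, the reverse of Snhg11, while for Gas5 circles and squares are mixed. Near-equal set means within a tissue make the shifts of the genotypes opposite.

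Between tissues, which the choice of genes did not use, the host genes differed in both directions. Whether both tissues were normalised together is not stated. Array minima were 0.36 to 0.38 in striatum and -0.77 to -0.66 in cerebellum, close within a tissue and unlike between them. A difference in processing between the tissues cannot be told apart from the tissue differences below. Among Q111 mice 5 of the 7 genes past the filter differed at an adjusted p of 0.05 (2 higher and 3 lower in striatum), against 71.4% of all probe sets, and among wild-type mice 4 of 7 did (2 higher and 2 lower), against 71.8%. The members' shares are read against these, and neither is read as a feature of the host genes.

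Snhg1 had the largest tissue difference of the 7. Its brightest probe set, 1439399_a_at, had 7.19, 7.32 and 7.79 as lowest, median and highest value in Q111 striatum, against 8.26, 8.55 and 8.65 in Q111 cerebellum. Among wild-type mice it had 7.22, 7.49 and 7.66 in striatum, against 8.43, 8.71 and 8.81 in cerebellum. The tissues did not overlap on any of the 5 Snhg1 probe sets in either genotype. The difference, striatum minus cerebellum, was -1.10 (-1.31 to -0.89, adjusted p = 1.2e-09) in Q111 and -1.20 (-1.41 to -0.99, adjusted p = 2.38e-10) in wild type, and those of the other 4 probe sets lay between -1.06 and -0.47. Snhg3 was also lower in striatum, with -0.52 (adjusted p = 0.000189) in Q111 and -0.37 (adjusted p = 0.00507) in wild type.

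Gas5 was higher in striatum. On its brightest probe set the tissue difference was 0.62 (0.34 to 0.89, adjusted p = 0.000236) in Q111 and 0.58 (0.30 to 0.85, adjusted p = 0.000465) in wild type, with all 6 striatum arrays above the cerebellar mean in each genotype. Probe sets 1449410_a_at (0.72 in Q111 and 0.65 in wild type) and 1436222_at (0.51 in Q111 and 0.73 in wild type) passed as well. Probe set 1424843_a_at did not, at 0.10 (-0.25 to 0.44, adjusted p = 0.619) in Q111 and 0.17 (-0.17 to 0.52, adjusted p = 0.361) in wild type, although it had the largest genotype difference of the 4. Snhg8 was higher in striatum by 0.24 (adjusted p = 0.0273) in Q111 and 0.28 (adjusted p = 0.00981) in wild type. The Q111 call of Snhg8 was lost without Q111 striatum array 5 (0.22, adjusted p = 0.0564), without Q111 cerebellum array 2 (0.19, adjusted p = 0.0793) and without Q111 cerebellum array 4 (0.21, adjusted p = 0.0617). It was also lost in numbers 1 to 3 alone (0.32, adjusted p = 0.0794) and in numbers 4 to 6 alone (0.15, adjusted p = 0.319). With the number set as a term it was 0.25 (adjusted p = 0.0656). That term takes numbers 1 to 3 as its reference in each tissue. Its tissue difference therefore refers to those numbers, with a larger standard error, and is not the difference over all 6 arrays adjusted for the set.

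Snhg6 differed little between the tissues. In Q111 the difference of -0.13 (-0.24 to -0.01) had an adjusted p of 0.0498, a call lost under 9 of the 12 other settings tried and without 19 of the 24 arrays, with adjusted p up to 0.146 without Q111 cerebellum array 2. Among these settings was the number-set term (-0.11, adjusted p = 0.197), whose tissue difference refers to numbers 1 to 3. In wild type it was -0.08 (-0.19 to 0.04, adjusted p = 0.238). Snhg11 gave -0.16 (adjusted p = 0.228) in Q111 and 0.19 (adjusted p = 0.146) in wild type. Snhg12 gave 0.46 (adjusted p = 0.0673) in Q111 and 0.32 (adjusted p = 0.201) in wild type. In Q111 Snhg12 passed without Q111 striatum array 5 or 6 (adjusted p = 0.0366 and 0.0315), without wild-type striatum array 2, which enters only the estimate of spread (adjusted p = 0.0419), or without Q111 cerebellum array 2 (adjusted p = 0.0469). It passed too in a fit of the 12 Q111 arrays alone (adjusted p = 0.0497) and in numbers 1 to 3 (0.61, adjusted p = 0.0142). In wild type it passed without wild-type striatum array 2 (0.48, adjusted p = 0.0416) and in numbers 4 to 6 (0.46, adjusted p = 0.0357). Snhg7, not tested, had 2.91 to 3.02 in Q111 striatum against 3.15 to 3.27 in Q111 cerebellum, and 2.94 to 3.02 in wild-type striatum against 3.17 to 3.66 in wild-type cerebellum, all under the filter.

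**Figure D5:**
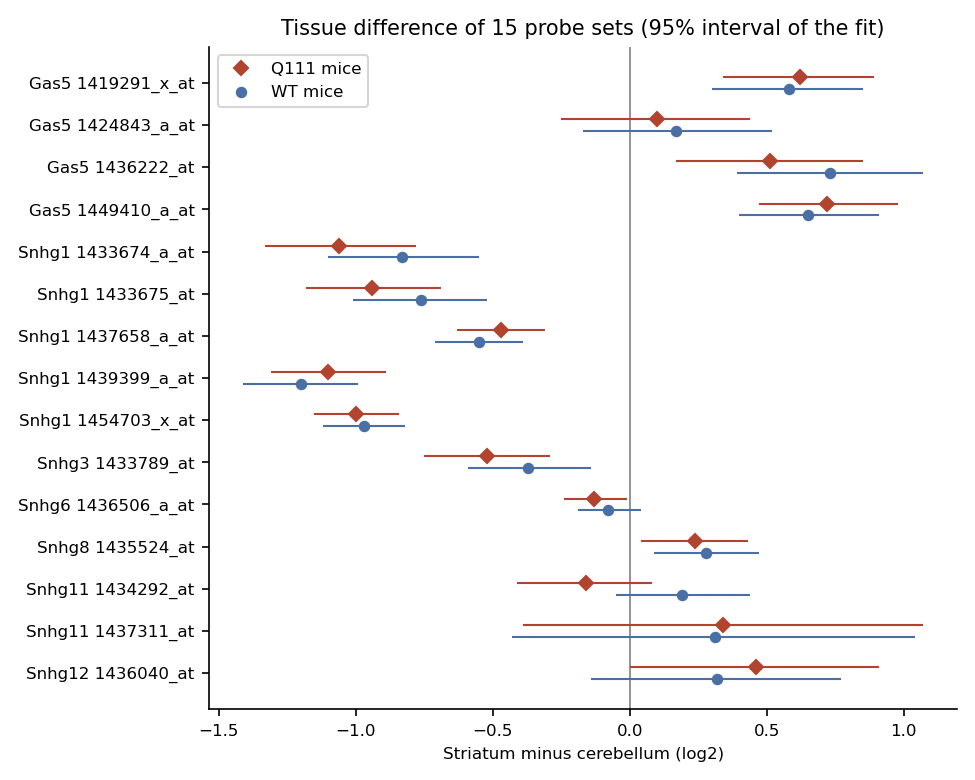
Striatum minus cerebellum (log2, horizontal axis) for the 15 probe sets past the filter, in Q111 mice (diamonds) and wild-type mice (circles). Lines are 95% intervals of the fit. All 5 Snhg1 probe sets lie below 0, and 3 of the 4 Gas5 probe sets lie above 0 with intervals that exclude it.

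Correlations between members from array to array were of mixed sign on their brightest probe sets. After group means were removed, correlations between the 7 genes over the 24 arrays ran from -0.48 (Snhg11 with Snhg12) to 0.42 (Snhg1 with Snhg12). Gas5 and Snhg6 correlated at -0.04. Both genes of a pair were measured on the same arrays, and these coefficients are a description.

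The genes whose values were most like those of Gas5 over the 24 arrays, group differences included, were Wnk1, a kinase gene of ion transport control (r = 0.876), Snrpg, a spliceosomal core protein gene (0.873), Abhd11 (0.872), Nsmce1, a subunit gene of the SMC5/6 complex (0.865), and Sbsn, which encodes suprabasin (0.864). Their Q111 minus wild-type differences lay between -1.09 (Sbsn) and -0.16 (Snrpg) in striatum and between -1.11 (Sbsn) and -0.12 (Snrpg) in cerebellum. For Snhg6 they were Cygb, the cytoglobin gene (r = 0.849), Ndufb9, a complex I subunit gene (0.819), Ptrhd1 (0.817), S100a6, a calcium-binding protein gene (0.811), and Clk1, a kinase gene of splicing control (0.811). Cygb differed by -0.49 in striatum and -0.41 in cerebellum, and S100a6 by -0.76 and -0.68. Since a shared genotype or tissue difference alone gives a high r, these names list likeness and no more.

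The 2 nearest named genes on each side of each host gene gave 30 neighbours, of which 15 were measured above the filter. In limma 0 of these passed between genotypes in either tissue (3 at an unadjusted p of 0.05 in each), and their median differences were -0.03 in striatum and -0.07 in cerebellum. Next to Snhg6, Sgk3, a kinase gene, gave 0.05 in striatum and -0.20 in cerebellum.

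Other genes of the snoRNA pathway showed few genotype differences. Counts at an unadjusted p of 0.05 are to be read against the 19.0% of all probe sets in striatum and 13.8% in cerebellum. Among 6 measured further non-coding hosts, 0 passed in either tissue (1 at an unadjusted p of 0.05 in striatum and 2 in cerebellum), with medians of -0.09 and -0.13. Rian, an imprinted host of many snoRNAs, gave -0.45 (adjusted p = 0.192) in striatum and -0.01 in cerebellum, and Snhg14, the host of the Snord115 and Snord116 clusters, gave 0.05 in striatum and -0.40 (adjusted p = 0.125) in cerebellum. Among 20 protein-coding hosts, most of them genes of ribosomal proteins or translation factors, 0 passed (1 and 0 at an unadjusted p of 0.05), with medians of 0.00 and -0.04. Rpl27a, with 0.24 and -0.26, was the widest in both tissues. Among 16 genes of the snoRNA-protein core and its assembly, 0 passed (3 and 4 at an unadjusted p of 0.05), with medians of -0.10 and -0.05. Naf1, an assembly factor of H/ACA particles, gave -0.40 (adjusted p = 0.202) and -0.38 (adjusted p = 0.318), and Nhp2, a core protein of the same particles, gave -0.21 (adjusted p = 0.102) and -0.15 (adjusted p = 0.327).

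Counts of genes that passed are to be read against 2.87% of all probe sets in striatum and 0.458% in cerebellum. Of 8 measured genes of nonsense-mediated decay, 1 passed (1 at an unadjusted p of 0.05 in striatum and 1 in cerebellum). Smg1, the kinase that phosphorylates Upf1, fell in striatum by 0.40 to a mean of 8.04 in Q111, against 8.43 in wild type (adjusted p = 0.0268), and gave -0.25 (adjusted p = 0.228) in cerebellum. The list's medians were 0.00 and -0.02. Of 16 genes of the glucocorticoid receptor and its responsive genes, 1 passed (6 at an unadjusted p of 0.05 in striatum and 2 in cerebellum). Klf9, a transcription factor gene induced by glucocorticoids, rose in striatum to a mean of 12.20 in Q111, against 11.95 in wild type (0.25, adjusted p = 0.0279), and gave 0.07 (adjusted p = 0.639) in cerebellum. In striatum Zbtb16 gave 0.94 (adjusted p = 0.0569), Cdkn1a 0.60 (adjusted p = 0.0646) and Per1 -0.53 (adjusted p = 0.0594). The Zbtb16 probe set, an x_at one, was low and near the filter at a mean of 4. It had 5.34 in Q111 and 4.40 in wild-type striatum, and 4.26 in Q111 and 3.87 in wild-type cerebellum. The receptor gene Nr3c1 gave -0.11 in striatum and -0.07 in cerebellum, and the list's medians were 0.11 and 0.12. Of 10 genes of mTOR signalling and TOP translation, 0 passed (at an unadjusted p of 0.05, 5 did in striatum and 1 in cerebellum), with medians of -0.11 in both tissues. Rps6, a ribosomal protein gene and substrate of S6 kinase, gave -0.60 (adjusted p = 0.0643) and -0.69 (adjusted p = 0.0781). Its probe set was low in both tissues, near the filter at a mean of 4. It had 3.99 in Q111 and 4.59 in wild-type striatum, and 3.63 in Q111 and 4.32 in wild-type cerebellum. These values are read for this probe set only.

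Markers of other cells were set beside the genotype differences. All 9 measured markers of cerebral cortex neurons were above 0 in Q111 minus wild-type striatum, and 2 rose, Neurod6 (1.12, adjusted p = 0.00345) and Fezf2 (0.71, adjusted p = 0.0132). At an unadjusted p of 0.05, 5 of the 9 passed in striatum, against 19.0% of all probe sets. The mean level of the 9 markers per array was 6.94 to 7.98 in Q111 and 6.69 to 7.45 in wild-type striatum. In cerebellum 3 of the 9 were above 0 and 0 passed (0 also at an unadjusted p of 0.05), with 6.07 to 6.36 in Q111 and 6.14 to 6.40 in wild type. Of 6 microglia markers, the complement genes C1qa, C1qb and C1qc rose in striatum and Aif1 passed in the other direction (-0.34, adjusted p = 0.0499). In striatum 4 of the 6 had an unadjusted p under 0.05. The mean level of the 6 markers there was 7.94 to 8.31 in Q111 and 7.49 to 7.98 in wild type. In cerebellum 0 of the 6 passed (3 at an unadjusted p of 0.05), with 5.73 to 6.30 in Q111 and 5.64 to 6.03 in wild type. No marker of striatal projection neurons, cerebellar neurons, choroid plexus, thalamus, oligodendrocytes or astrocytes passed in either tissue in limma, where between 0 and 2 of each list had an unadjusted p under 0.05, and no blood marker was above the filter. The part of these cells in the genotype differences was not tested in either tissue.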

How the data were processed

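RNA of 24 samples had been labelled with biotin and hybridised to Affymetrix MG430 2.0 arrays. The authors deposited 1 table of values made with GCRMA, per the submitters' processing notes (no version is given). The log base is not stated, and the deposited values, from -0.77 to 16.33, were read as log2.

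Of 45101 probe sets, 64 controls were left out, and 20738 (46.0% of the rest) had a mean of at least 4 in striatum or cerebellum. One limma model (3.58.1, R 4.3.3) with a mean per group was fitted to all 24 arrays. Adjusted p is Benjamini-Hochberg over all 20738. The model was tested on simulated arrays. Tables and figures were made in Python 3.11.15 with pandas 2.3.3 and matplotlib 3.10.9.

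The members and gene lists were chosen with earlier results of these data known. All members are named. The probe set brightest over the 24 arrays stands for a gene, the 5 genes of highest Pearson r stand for likeness, and from each list the genes past the threshold are named, otherwise up to 2 of the largest. Nr3c1, Nhp2, Sgk3, Zbtb16, Cdkn1a and Per1 were named after their values were seen.

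Same-numbered arrays of Q111 and wild type deviated together at -0.409 to -0.088 in striatum and -0.423 to 0.119 in cerebellum, and striatum and cerebellum at -0.055 to 0.142 in Q111 and -0.004 to 0.183 in wild type. Near-equal means of the number sets push same-set deviations of the genotypes apart, so the values within a tissue say little about pairing. No label ties same-numbered arrays, not every r was above 0.1, and numbers were not treated as pairs. Intervals and p-values rest on 6 arrays per group, and the number of arrays limits the precision. Alternatives covered the filter, quantile normalisation, median centring, array weights, the variance prior, the samples fitted, the number set, a replicate block, the mean of a gene's probe sets and leaving out each array. Sequences, names and order of genes came from RefSeq GRCm38.p6. Probe sets with several gene symbols were left out.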

Additional observations from a re-analysis of the deposited data

Results flagged for a closer look

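In 3 of the 32 groups of 6 arrays formed by 8 host genes and 4 groups, one array stood apart from the others by Dixon's test, which flags about 1 in 20 groups by chance. Snhg7, below the filter on low values, had its lowest Q111 striatum array at 2.91, where the others lay between 2.99 and 3.02, and its highest wild-type striatum array at 3.02, where the others lay between 2.94 and 2.97. Snhg8 had its lowest Q111 striatum array at 9.45, where the others lay between 9.66 and 9.74. None of these arrays was left out of a result on that ground.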

How the results depend on the processing

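Gas5 (brightest probe set) and Snhg6 stayed lower in Q111 in both tissues under all 12 other settings and without each of the 24 arrays. As arrays were left out, Gas5 lay between -0.66 and -0.49 and Snhg6 between -0.32 and -0.23. Both were chosen for being lower on these same arrays, so the sign was nearly fixed by the choice and nothing is read from it. In striatum the number of probe sets passing between genotypes was 595, and it was 384 with no filter, 316 with the number set as a term, 242 with numbers 1 to 3 alone, 251 with 4 to 6 alone, 371 genes with the mean of a gene's probe sets, and 219 to 689 as arrays were left out. It moved by over 1.5 times without Q111 array 1 (325), 2 (385), 5 (352) or 6 (272), or wild-type array 3 (354), 4 (219) or 6 (372). In cerebellum it was 95, with 49 under the number-set term, 11 and 18 in the sets alone, 396 with array weights and 34 to 252 as arrays were left out. It moved by over 1.5 times without Q111 array 3 (34), 5 (39) or 6 (252), or wild-type array 1 (39), 2 (194) or 6 (56). For the interaction it was 18, with 11 under median centring, 6 with the number-set term, 10 and 30 in the sets alone, 64 with array weights, 7 with gene means and 6 to 50 as arrays were left out, a move of over 1.5 times for each array but wild-type striatum 2 and 6, Q111 cerebellum 4 and wild-type cerebellum 5. Between tissues it was 14817 in Q111 and 14890 in wild type, or 9562 genes in Q111 and 9633 in wild type with gene means. Fewer features or arrays enter the settings by gene mean and by set, and the cause of the other shifts was not tested.

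Replicate numbers were not treated as pairs. Between tissues, 2 of 6 arrays in Q111 and 3 of 6 in wild type correlated best with their own number. With the number as a replicate block 436 probe sets passed in striatum, 98 in cerebellum and 5 for the interaction. The block ended the call of Snhg6 between tissues in Q111 (adjusted p = 0.0713) and changed no other call of a member.

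Small differences that passed no test changed sign. In numbers 1 to 3 alone the genotype difference was 0.12 for Snhg1, 0.01 for Snhg3 and 0.51 for Snhg12 in striatum, and -0.07 for Snhg3 and 0.07 for Snhg12 in cerebellum, with interactions of 0.08 for Snhg3 and 0.10 for Snhg8. In numbers 4 to 6 alone Snhg11 gave 0.09 in cerebellum, and the interaction was -0.07 for Snhg1 and -0.16 for Snhg12, while the striatal difference of Snhg12 of -1.01 passed (adjusted p = 0.0211). Quantile normalisation gave 0.03 for Snhg11 in cerebellum. The mean of a gene's probe sets gave an interaction of -0.05 for Snhg1 and a Q111 tissue difference of 0.09 for Snhg11. As arrays were left out, the cerebellar difference ran from -0.04 to 0.08 for Snhg3 and from -0.06 to 0.06 for Snhg11, and the interaction from -0.13 to 0.00 for Snhg8 and from -0.02 to 0.26 for Snhg12. The tissue calls of Snhg3 (-0.25, adjusted p = 0.214, numbers 4 to 6) and Snhg8 (0.22, adjusted p = 0.215, numbers 1 to 3) in wild type were each lost in one set of 3 arrays.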
